A study of Mus musculus with 9 samples.

Results

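The data are the regions of open chromatin that stood out in basal cells of the mouse mammary gland at puberty and again in adults. Of the 124860 regions in the deposited table, 3387 (2.71%) met the rule. In each of these stages the log2(value + 1) of the basal library was at least 2, which is about 4-fold, above both luminal libraries, and the basal value was at least 20. The pregnancy libraries played no part in the choice and hold the independent values. They are called stably basal-open regions here. The members were thus selected on the puberty and adult signal, by a rule written with earlier results of these data known.

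The study profiled accessible chromatin by ATAC-seq, an assay that inserts sequencing adapters into open DNA with the transposase Tn5. FACS gave basal cells, luminal cells that carry the oestrogen receptor (ER+ luminal) and those that lack it (ER- luminal) from glands at puberty, in adults and at mid pregnancy. There was 1 library for each cell type and stage, 9 in all, so no difference between single libraries has a replicate check. Per the labels all 9 carry the genotype ERrtTA/TetOCre/rosaYFP, a reporter line with a tetracycline-controlled Cre, and no wild-type library enters the comparison. Ages, numbers of pooled animals, sort gates and any inducer are not given in the sources used here.

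Basal cells form the outer layer of the mammary ducts and, in lactation, contract to eject milk. They make the keratins and the smooth-muscle proteins of this layer, and cells able to regenerate ducts on transplantation have been found among them. Luminal cells line the duct. The ER+ luminal cells sense oestrogen and progesterone and pass the signal on to their neighbours, and the ER- luminal cells include the progenitors of the milk-secreting alveoli that expand in pregnancy. Open regions away from gene starts are often enhancers, and many of them are open in some cell types only. The table pairs its regions with neither coordinates nor gene names. Regions are therefore given by their number, basal marker genes could not be looked up to check the sort, and no sequence or motif is shown.

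The libraries held 7508229, 11328189 and 8525184 reads in regions at puberty in basal, ER+ luminal and ER- luminal cells. They held 6679907 to 7976287 in adults, and 2186941, 2641254 and 3418164 in pregnancy in the same order of cell types. The values are normalized signal, in which 1 read was worth 0.526 to 0.855 units at puberty and in adults and 1.517 to 2.199 units in pregnancy. The ER+ luminal pregnancy library had the narrowest range. Its 90th percentile over all regions was 16.3 times its 10th, against 23.0 and 35.0 in the basal and ER- luminal pregnancy libraries and 39.7 to 88.3 in the other 6. The 10th percentile was 3 reads or fewer in each pregnancy library, so 1 read more or less there would move this ratio. The leading shares and counts that rest on the ER+ luminal pregnancy library are also given without it, some of them added after the values were seen. Each library is made of many cells, so the share of cells in which a region is open and the degree of opening in each cell cannot be told apart.

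In basal cells the stably basal-open regions had a median value of 48.3 at puberty (quartiles 31.7 and 79.9), 60.8 in adults (40.2 and 96.3) and 46.2 in pregnancy (28.6 and 72.6). In ER+ luminal cells the medians were 2.103, 3.42 and 13.6 in the same order of stages. In ER- luminal cells they were 4.30, 6.69 and 10.6. The puberty and adult values describe the choice. In pregnancy, which the rule did not use, the basal median was still more than 3 times each luminal median, and both luminal medians were higher there than at either earlier stage. Over all regions the median lay between 13.6 and 17.96 in each of the 9 libraries.

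**Figure D1:**
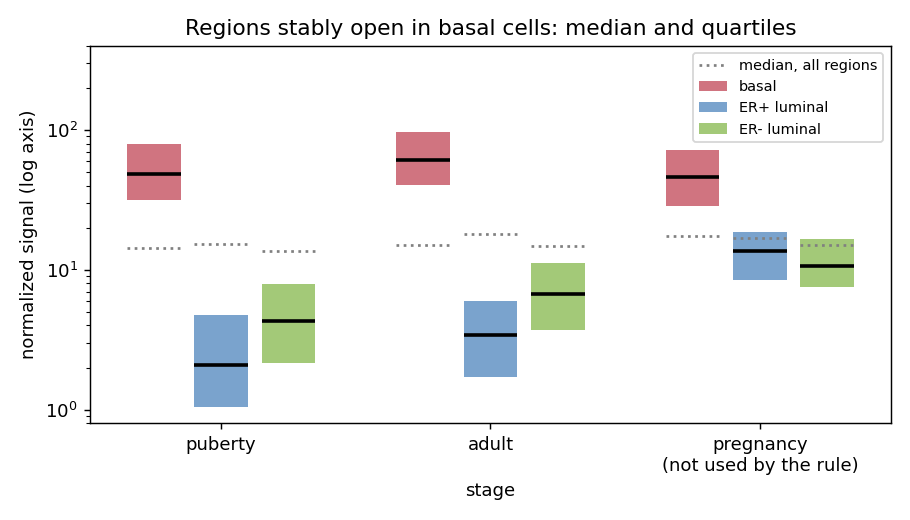
Normalized signal (log axis) of the 3387 stably basal-open regions in each of the 9 libraries, by stage and cell type; boxes span the quartiles, black lines are medians and dotted lines the medians of all regions. The basal box stays high at the 3 stages, and the luminal boxes sit higher in pregnancy, with medians of 13.6 in ER+ and 10.6 in ER- luminal cells.

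The regions took 4.04% of the basal reads in pregnancy, with a 95% exact binomial interval of 4.02 to 4.07%. They took 1.15% of the reads in ER+ luminal cells (1.14 to 1.16%) and 0.883% in ER- luminal cells (0.873 to 0.893%). In the libraries that the rule used, the basal share was 3.76% at puberty and 4.22% in adults, and the luminal shares ran from 0.219 to 0.555%. The pregnancy share of basal reads thus lay between the basal shares of the earlier stages, and both luminal shares in pregnancy lay above all 4 earlier luminal shares. PCR copies of a molecule, where they were kept, are counted more than once. Such intervals reflect counting error alone.

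In pregnancy 3232 of the 3387 regions (95.4%) were highest in basal cells of the 3 cell types. Among all regions 34% were. Without the ER+ luminal pregnancy library, 98.3% were higher in basal than in ER- luminal cells, against 49.3% of all regions. Fewer kept the size of difference that the rule had asked for. The basal margin, which is the log2 value of the basal library minus that of the higher luminal library, had a median of 1.55 over the stably basal-open regions (quartiles 0.98 and 2.09) and -0.39 over all regions (-1.04 and 0.29). It was at least 2 in 977 regions, or 28.8% (95% Clopper-Pearson interval 27.3 to 30.4%), against 1.82% of all regions. It was at least 1 in 2527 regions (74.6%), against 9.68% of all regions. Against the ER- luminal library alone, without ER+ luminal pregnancy, the share at least 4-fold higher was 48.5%, and against the ER+ luminal library alone it was 42.4%. In all regions these shares were 5.68% and 5.72%. With 1 library a cell type these shares have no test.

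**Figure D2:**
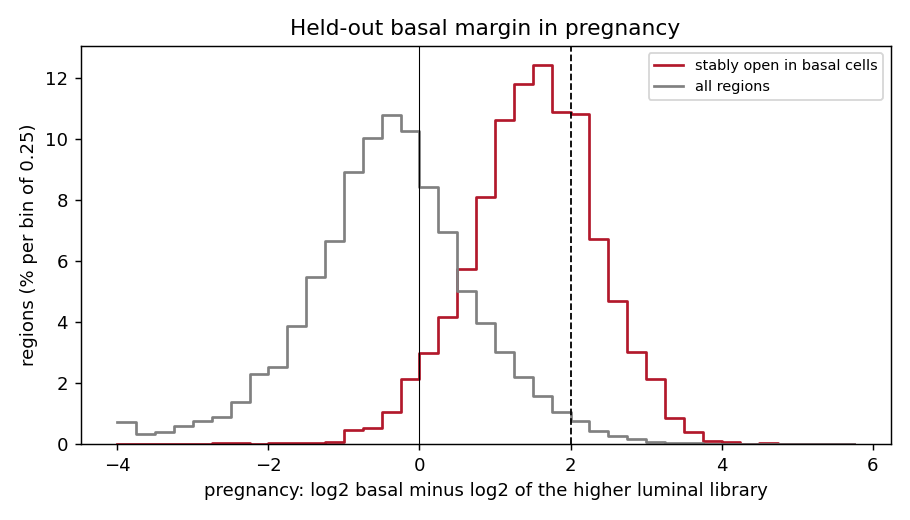
Distribution of the basal margin in pregnancy (log2 basal minus log2 of the higher luminal library, bins of 0.25) for the stably basal-open regions and all regions, as percent of each set; the dashed line marks 4-fold. The stably basal-open regions centre on a median of 1.55, and 28.8% of them lie at or past the line.

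The counting depth in pregnancy set how many single regions could be placed. The median stably basal-open region had 21 basal reads there, beside 8 ER+ luminal and 7 ER- luminal reads. The exact 95% counting interval of the basal to luminal ratio lay above 1 against both luminal libraries in 2268 regions (67.0%), and in 7.33% of all regions. Against the ER- luminal library alone it lay above 1 in 78.0%, and in 11.2% of all regions. It lay wholly below 1 against at least 1 luminal library in 3 regions, and in 16.9% of all regions. Against 4-fold, 105 regions (3.10%) lay wholly above for both libraries, as did 0.0929% of all regions. Wholly below for at least 1 library lay 525 (15.5%), against 76.8% of all regions. In the remaining 2757 regions (81.4%) a 4-fold difference was not decidable at this depth. When the reads of all libraries were thinned to 2186941, the share with a 4-fold margin in pregnancy was 28.7%, against 2.07% of all regions. Over ER- luminal cells alone it was 49.8%, for which the share of all regions was not computed. In adults, where the rule had been met by choice, the share after thinning was 86.1%.

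The regions that kept a 4-fold margin in pregnancy were brighter in basal cells. The 977 that kept it over both luminal types had a median basal value of 74.8 in pregnancy, with 10.2 in ER+ and 10.6 in ER- luminal cells. The 1285 regions (37.9%) at least 4-fold above neither luminal type had a basal median of 30.8, an ER+ luminal median of 15.3 and an ER- luminal median of 12.1. A further 665 regions (19.6%) kept the margin over ER- luminal cells only, with medians of 46.2 (basal), 17.0 (ER+ luminal) and 7.58 (ER- luminal). The remaining 460 (13.6%) kept it over ER+ luminal cells only, with 48.4, 6.78 and 16.7. These classes were made from the pregnancy values and are descriptions. In adults the luminal medians of the classes were close, with 3.42 in ER+ luminal cells for each class and 5.94 to 7.43 in ER- luminal cells.

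Single regions were named among those with a value of at least 20 in 1 or more of the pregnancy libraries. The largest margin among them was at merged45402, which had 21.99 in basal cells from 10 reads and no read in either luminal library. The counting interval of its ratio started at 2.91 over ER+ luminal cells and at 3.25 over ER- luminal cells, so 4-fold was not decidable for it. Next came merged48697, with 129.8 in basal cells in pregnancy, beside 6.78 in ER+ luminal cells and 1.517 in ER- luminal cells. The same region had 98.14 in basal cells, 0 in ER+ luminal cells and 0.7169 in ER- luminal cells at puberty, and 146, 3.421 and 5.2 in adults. Its 3 basal values thus lay above its 6 luminal values, as in 94.7% of the stably basal-open regions and 11.1% of all regions.

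At the other end of the regions that reached a value of 20 in pregnancy, the basal library was below a luminal one. Region merged109315 had 6.598 in basal cells in pregnancy, below 22.04 in ER+ luminal cells and 9.1 in ER- luminal cells, from 3, 13 and 6 reads. In adults its basal value was 26.83 and its luminal values 5.131 (ER+) and 4.457 (ER-). The ratio of basal to ER+ luminal signal in pregnancy was 0.299, with a counting interval of 0.0547 to 1.09, so the turned order was within counting error. Region merged17666 had 13.2, 37.29 and 7.584 in pregnancy in the same order of cell types, against 40.25, 5.987 and 5.943 in adults. Its basal to ER+ luminal ratio of 0.354 had an interval of 0.117 to 0.900, below 1.

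Brighter regions kept the margin more often. The regions were split into 4 groups of equal size by their mean basal value at puberty and in adults, which the rule used. From the dimmest group to the brightest the share with a 4-fold margin in pregnancy was 17.9%, 23.1%, 27.8% and 46.5%. The share that was highest in basal cells was 91.1%, 93.9%, 97.9% and 98.8% in the same order. Over ER- luminal cells alone the shares with a 4-fold margin were 35.9%, 43.8%, 51.4% and 62.8%. The median basal value in pregnancy was 26.4, 37.4, 55.0 and 92.4. The luminal medians varied less across the groups, from 8.48 to 18.6 in ER+ and from 7.58 to 18.2 in ER- luminal cells. The dimmest group had a median of 12 basal reads in pregnancy and the brightest 42, and the part of depth in this order was not tested.

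**Figure D3:**
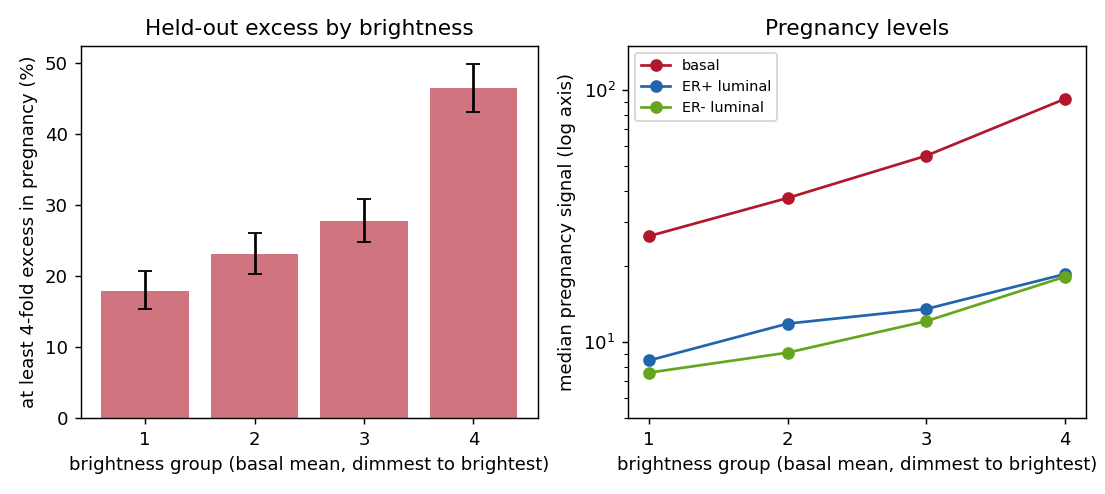
Left, the share of stably basal-open regions with an at least 4-fold basal margin in pregnancy, by brightness group (mean basal signal of the puberty and adult libraries); bars start at 0 and error bars are 95% Clopper-Pearson intervals over regions. Right, median pregnancy signal (log axis) of each cell type in the same groups. The share is 17.9% in the dimmest and 46.5% in the brightest group.

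Between pregnancy and adulthood the basal signal of these regions was lower and the luminal signal higher. The median log2 difference, pregnancy minus adult, was -0.45 in basal cells (quartiles -0.95 and 0.04). It was 1.62 in ER+ luminal cells (0.88 and 2.35) and 0.64 in ER- luminal cells (0.03 and 1.17). The basal median was -0.16 after quantile normalization and -0.26 with the rule applied at puberty alone. Over all regions the difference was -0.03, -0.05 and 0.03 in the same order. In 1692 regions (50.0%) the basal value was lower and both luminal values were higher in pregnancy, which was so in 10.9% of all regions. The adult values were chosen to be high in basal and low in luminal cells, so part of each difference follows from the choice.

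Basal values at least 4-fold lower in pregnancy than in adults were about as common as over all regions. ER+ luminal values at least 4-fold higher were more common than over all regions. In basal cells 92 regions (2.72%) were at least 4-fold lower in pregnancy than in adults and 1 was at least 4-fold higher, against 3.1% and 5.17% of all regions. In ER+ luminal cells 1281 regions (37.8%) were at least 4-fold higher and 7 lower, against 11.1% and 6.68% of all regions. In ER- luminal cells 216 (6.38%) were at least 4-fold higher and 18 lower, against 3.49% and 1.54%. The adult values were chosen high in basal and low in luminal cells, so part of each of these counts follows from the choice. Set against puberty, the pregnancy medians differed by 2.04 in ER+ luminal cells, by 1.17 in ER- luminal cells and by -0.18 in basal cells. Between adult and puberty, both used by the rule, they differed by 0.39, 0.53 and 0.26 in that order.

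**Figure D4:**
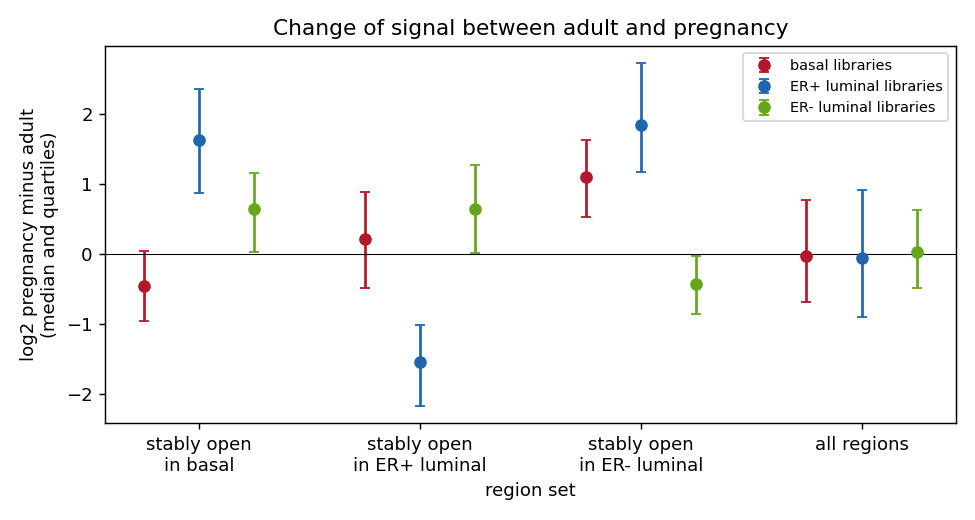
Log2 difference between pregnancy and adult (points are medians, bars quartiles over regions) in the libraries of each cell type, for regions stably open in 1 of the 3 cell types and for all regions. In each set the cell type in which the regions were open at the earlier stages has a median below 0, and the other cell types have medians above 0. The sets were chosen on the adult values, so part of each difference follows from the choice.

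Low values in general were higher in the pregnancy libraries. The 10th percentile over all regions was 5.09 in pregnancy, against 1.71 in adults, in ER+ luminal cells. It was 3.03 against 2.23 in ER- luminal cells and 4.40 against 2.37 in basal cells. Each of these percentiles was 3 reads or fewer, and 1 read was worth more units in pregnancy, which sets part of these differences. Of the stably basal-open regions, 2669 had an adult ER+ luminal value of 5.99 or less, the upper quartile of the set. Their median ER+ luminal value was 11.9 in pregnancy and 2.57 in adults. The 31070 other regions in that adult range had medians of 8.48 in pregnancy and 2.57 in adults. For ER- luminal values of 11.1 or less, the medians were 10.6 in pregnancy and 5.20 in adults in 2625 stably basal-open regions, against 7.58 and 4.46 in 51605 other regions. A higher luminal signal in pregnancy was thus also measured at low regions outside the set, where the difference was smaller at the median. Both groups were picked for a low adult value in the same cell type, so part of each difference follows from that choice. With all libraries thinned to equal depth the median differences between pregnancy and adult at the stably basal-open regions were -0.43 for basal cells, 1.64 for the ER+ luminal type and 0.71 for the ER- luminal type. The part of the general shift in the result was not tested.

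Most of the regions stayed open in basal cells in pregnancy, but a small group had no basal read. Among the stably basal-open regions 2969 (87.7%) had a basal value of at least 20 in pregnancy, and 7 (0.207%) had no basal read. Among all regions these shares were 42.8% and 2.70%. Of the 7, 6 carry numbers between 34494 and 34513. This stretch was singled out after its values were seen. It holds 20 regions, of which 9 are stably basal-open, and 10 of the 20 had no read in any of the 3 pregnancy libraries, luminal ones included. Among all regions 63 (0.0505%) had none. Animals and stages cannot be told apart here, since the glands of each stage came from other mice. The 9 stably basal-open regions in it had basal values of 21.4 to 70.4 at puberty (median 38.0), 23.7 to 76.6 in adults (median 37.9) and 0 to 17.6 in pregnancy (median 0).

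The regions whose basal value was lowest in pregnancy relative to adults were both from that stretch. Region merged34499 had no read in the 3 pregnancy libraries, against 43.41 in basal adult cells from 55 reads, and the counting interval of the ratio ended at 0.193. Its neighbour merged34500 also had none in pregnancy, against 42.62 in basal adult cells from 54 reads, with an interval that ended at 0.197. At the other end, merged53693 had a basal value of 96.77 in pregnancy, against 21.31 in adults, 4.54 times as high (counting interval 2.75 to 7.63). Its luminal values in pregnancy were 32.21 in ER+ and 13.65 in ER- cells, so its margin of 1.56 was under 4-fold. Region merged34281 had 87.97 in pregnancy, against 23.68 in adults, a ratio of 3.72 (2.26 to 6.18). Its luminal values in pregnancy were 6.78 and 4.55, and it kept a margin of 3.52.

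The luminal types were set against each other because the rule did not compare them. At puberty 26.5% of the stably basal-open regions had a higher value in ER+ than in ER- luminal cells, and in adults 20.02% had, against 48.7% and 49.3% of all regions. In pregnancy 1944 regions (57.4%) were higher in ER+ luminal cells, against 49% of all regions. The median log2 difference, ER+ minus ER-, was -0.62 at puberty, -0.80 in adults and 0.15 in pregnancy. The order of the luminal types thus turned in the pregnancy libraries. This turn rests on the ER+ luminal pregnancy library, which had the narrowest range. The 10th percentile over all regions was 5.09 there, against 3.03 in ER- luminal pregnancy, in both 3 reads or fewer. By rank among all regions, the median member was at percentile 40.5 in ER+ and 37.5 in ER- luminal cells in pregnancy, against 16.9 and 29.8 in adults. The part of the raised low values in the turn was not tested. Of the 2048 regions higher in ER- luminal cells at both puberty and adulthood, 1107 (54.1%) were higher in ER+ luminal cells in pregnancy. Of the 269 higher in ER+ luminal cells at both, 170 (63.2%) were higher there in pregnancy as well. The same shares over all regions of each earlier order were not computed, so nothing particular to the set is read from them. The earlier order rests on few reads. The median member had 4 ER+ luminal reads at puberty and in adults, beside 6 and 9 ER- luminal reads. The difference between the stages rests on 1 ER+ and 1 ER- luminal library a stage and was not tested.

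Across the 3 stages the difference between the luminal types was tested with limma, in a model of cell type and stage fitted to all 124860 regions. All 3387 regions entered with no filter. At a Benjamini-Hochberg adjusted p under 0.05, 8 were higher in ER+ luminal cells and 185 were lower there, which is 0.236% and 5.46% of them, against 13.8% and 12.3% of all regions. Of the 6 luminal libraries in the fit, 4 gave values that the rule had used and held below basal cells, so the calls are not held-out values and nothing is read from their share. The 185 regions lower in ER+ luminal cells differed from ER- luminal cells by a median of -2.15 both at puberty and in adults, and by -0.72 in pregnancy. In pregnancy their median values were 13.6 in ER+ and 21.2 in ER- luminal cells, beside 90.2 in basal cells. In 171 of them ER+ luminal cells were lower at all 3 stages. The regions were called from these same values, so the differences and this count describe the calls and are no separate check. The error in this model comes from libraries that depart from the sum of a cell type and a stage effect, since no animals of the same cell type and stage were compared.

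The number called depended on single libraries, both in these regions and over all regions. Without ER+ luminal pregnancy it was 908 (26.8%), of which 11 were higher in ER+ luminal cells. In the same fit 20.5% of all regions were higher in ER+ luminal cells and 17.9% were lower. Without ER+ luminal puberty, ER+ luminal adult, ER- luminal puberty, ER- luminal adult or basal adult it was 46, 37, 49, 33 and 122. Of all regions, 5.83%, 4.78%, 6.93%, 5.15% and 12.8% were then higher in ER+ luminal cells. Lower there were 6.64%, 5.87%, 5.26%, 4.72% and 11.2% of all regions. The count test of edgeR on the recovered reads called 5 higher and 147 lower, against 14.3% and 12.4% of all regions.

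Region merged116982 had the largest difference towards ER- luminal cells. It had 3.155, 0 and 5.085 in ER+ luminal cells at puberty, in adults and in pregnancy, against 19.36, 23.77 and 21.23 in ER- luminal cells (log2 difference -2.93, SE 0.54, limma adjusted p = 0.000582). Its basal values were 139.3, 112.1 and 105.6 at the same stages, from 1 library each. Region merged80293 had no read in the 3 ER+ luminal libraries, against 4.301, 5.2 and 7.584 in ER- luminal cells (limma adjusted p = 0.00622). In basal cells it had 48.28, 35.51 and 15.4.

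In the other direction merged120569 had 4.207, 12.83 and 25.43 in ER+ luminal cells at the same stages, against 0, 7.428 and 4.55 in ER- luminal cells (log2 difference 1.78, SE 0.58, limma adjusted p = 0.0258). Its basal values of 98.14, 99.44 and 101.2 hardly varied. Region merged8425 had 2.103, 11.97 and 15.26 in ER+ luminal cells, against 0.7169, 0.7428 and 4.55 in ER- luminal cells (log2 difference 1.77, SE 0.59, limma adjusted p = 0.0299). Its basal values were 107.6, 79.71 and 121. In both regions the ER+ luminal value was above the ER- luminal one at each stage, among the values from which they were called.

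The rule was also read 1 stage at a time. It was met by 5564 regions at puberty, by 6065 in adults and, applied in the same way, by 1885 in pregnancy. These are 4.46%, 4.86% and 1.51% of all regions, the shares to set beside those that follow. Of the 5564 at puberty, 60.9% met it in adults and 20.7% in pregnancy. Of the 6065 in adults, 55.8% met it at puberty and 19.7% in pregnancy. Of the 1885 in pregnancy, 61.1% met it at puberty and 63.4% in adults. Without the ER+ luminal pregnancy library the rule was met in pregnancy by 4152 regions. That count asks for basal above ER- luminal cells alone, so it is not like the 5564 and 6065. Basal cells were at least 4-fold above ER- luminal cells alone in 9.45% of all regions at puberty. In adults this share was 8.73% and in pregnancy 5.68%. At all 3 stages 968 regions met it, which is 28.6% of the stably basal-open regions and 51.4% of those that met it in pregnancy. Without that library 1593 did. Another 505 regions met it in pregnancy and at neither earlier stage. With both luminal libraries, fewer regions met it in pregnancy than at the earlier stages. The pregnancy libraries held fewer reads and spanned a narrower range, and the part of this was not tested.

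Regions just inside the rule were close to those just outside it. The 306 members whose smallest difference was 2 to 2.1 had a median margin of 1.30 in pregnancy, and 15.7% had a 4-fold margin. The 303 regions left out with a smallest difference of 1.9 to 2 had 1.25 and 13.2%. At the limit on the basal value, the 161 members whose smaller basal value was 20 to 22 had a median margin of 0.97, and the 237 regions left out at 18 to 20 had 1.08.

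The same rule read for the luminal types gave 5204 regions stably open in ER+ luminal cells and 866 stably open in ER- luminal cells. In pregnancy a 4-fold margin was held by 28.8% of the stably basal-open regions, against 10.1% of the ER+ luminal and 2.08% of the ER- luminal sets. Of all regions 1.82% had such a margin in basal cells, 1.496% had one for ER+ luminal and 0.304% for ER- luminal cells. Over basal cells alone, without the ER+ luminal pregnancy library, the share of the ER- luminal set was 10.6%. The share of all regions was not computed for this easier criterion, so the 10.6% has no background beside it. Highest in their own cell type were 95.4%, against 81.6% and 89.6%. The own cell type was lower in pregnancy than in adults by a median log2 difference of -0.45 in basal cells at basal regions, against -1.54 in ER+ luminal cells and -0.43 in ER- luminal cells at theirs. Basal cells in pregnancy had a median of 19.8, against 8.68 in adults, at the regions stably open in ER- luminal cells, and 10.996, against 7.89, at those stably open in ER+ luminal cells. Each set was chosen on its puberty and adult values, so part of each difference from adults follows from the choice. These sets have 1 library a cell type and stage, and the differences between them were not tested.

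Values of the stably basal-open regions were also compared across stages. Across the 3387 regions, which are not independent replicates and share their libraries' depth, the log2 basal value in adults and pregnancy had a Pearson r of 0.66 and a Spearman rho of 0.65. The margin in adults and pregnancy had an r and a rho of 0.21. The rule cut the adult margin off at 2 and the adult basal value at 20, which limits both comparisons. For the luminal values r was 0.41 in ER+ and 0.55 in ER- luminal cells. These are descriptions of the 9 libraries.

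Stably basal-open regions often carried consecutive numbers. Of the 3387, 673 (19.9%) had another at the next number up or down, whereas 5.22% of all regions had a stably basal-open region beside them. Among places 1 number away from such a region 10.8% were stably basal-open, at a distance of 5 numbers 6.26% were, and at 100 numbers 3.07%, near the 2.71% of the whole table. The 5848 regions outside the set at the next number had a median margin of -0.04 in pregnancy, against -0.41 at 1000 numbers. The longest run had 6 regions in a row. In it the basal values were 38.0 to 184 at puberty, 24.5 to 153 in adults and 19.8 to 106 in pregnancy, while its luminal values at the 3 stages reached at most 21.2. The sources used here do not say what the numbers stand for, so the distance between such regions in the genome is unknown.

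**Figure D5:**
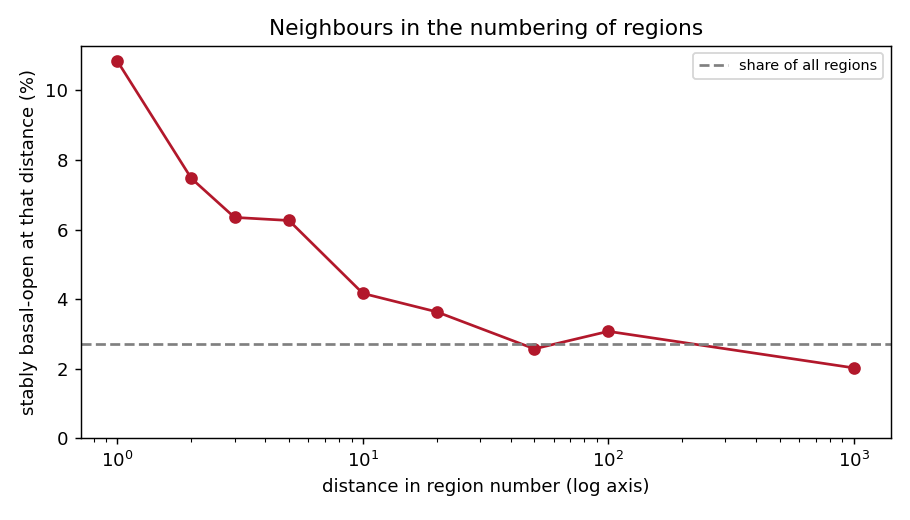
Share of stably basal-open regions among the places at a given distance in region number from a stably basal-open region (log axis); the dashed line is their share of all regions. The share is 10.8% at the next number and 3.07% at a distance of 100, beside 2.71% overall.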

How the data were processed

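Bowtie2 2.2.6 and MACS2 2.1.0.20151222, along with Picard and SAMtools, are named in the submitters' processing notes, with the build GRCm38 (mm10). The Tn5 shift, peak merging and counting are not given in the sources used here. Per the file header, the deposited table holds 1 normalized signal value per region and library. In each library 100% of the values were whole multiples of 1 step within 0.02 reads, so whole reads were recovered. The deposited signal was compared as it stands.

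Values were used as log2(value + 1). This scale understates the change of low regions. Members and lists were chosen with earlier results of these data known, and named regions were the 2 at each end of each comparison, among regions with a value of at least 20 in the highest library compared for the pregnancy comparisons and among limma calls for the luminal types. The luminal types were compared with limma 3.58.1 (R 4.3.3) in a model of cell type plus stage, with a variance trend. EdgeR 4.0.16 on recovered reads was an alternative. Other alternatives changed the pseudocount, scaling, depth, filter, rule and libraries. Ratio intervals are exact conditional binomial at 95%.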

Additional observations from a re-analysis of the deposited data

Results flagged for a closer look

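Medians of opposite sign in a pair of cell types or stages are listed here. Each comes from 1 library per cell type and stage, and none of the differences was tested. The sets were chosen on the puberty and adult values, to be high in 1 cell type and low in the others. Part of each difference of pregnancy from an earlier stage within a cell type therefore follows from the choice. At the stably basal-open regions the median log2 difference between pregnancy and adult was positive in ER+ luminal cells and negative in basal cells, 2.07 apart, and positive in ER- luminal cells, 1.09 above basal cells. Set against puberty, the same pairs were 2.23 and 1.35 apart. At the regions stably open in ER+ luminal cells, basal and ER- luminal cells were higher in pregnancy than in adults while ER+ luminal cells were lower, with medians 1.76 and 2.18 apart. At those stably open in ER- luminal cells, basal and ER+ luminal cells were higher while ER- luminal cells were lower, 1.53 and 2.28 apart. Within the stably basal-open regions the median difference of ER+ minus ER- luminal cells was above 0 in pregnancy and below 0 earlier, 0.77 above puberty and 0.95 above adult.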

How the results depend on the processing

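The margin and the differences of pregnancy from adult at the stably basal-open regions kept their sign under the settings below. Over all regions quantile normalization moved the median difference from adult to 0.01 in basal and 0.06 in ER+ luminal cells, with -0.03 and -0.05 in the deposited values. The medians of ER+ minus ER- luminal cells at single stages and those of the other sets were not run under other settings. The share with a 4-fold basal margin in pregnancy, 28.8%, became 31.4% with a pseudocount of 0.25, 19.6% with 4, 38.1% after quantile normalization, 43.9% for a rule at a log2 difference of 3, 21.0% and 20.4% for the rule at puberty or adult alone, 34.8% for regions whose mean was not below that of the median region, and 74.6% and 3.60% at 2-fold and 8-fold. Leaving out 1 luminal pregnancy library gave 42.4 to 48.5%, against 5.68 to 5.72% of all regions. Of all regions, 2.21% had a 4-fold margin with a pseudocount of 0.25, 0.923% with 4 and 2.68% after quantile normalization. The median margin, 1.55, became 1.59, 1.38, 1.69, 1.87, 1.30, 1.28 and 1.70 in the same order of settings, and 1.82 to 1.96 without 1 luminal library. The region means took in the pregnancy values, so the 34.8% and the 1.70 are not held-out values. Their part that follows from this choice was not tested, and the share of all such regions was not computed. The basal difference of pregnancy from adult, -0.45, became -0.16 after quantile normalization, -0.52 with the stricter rule, and -0.26 and -0.62 with the rule at puberty or adult alone. The ER+ luminal difference, 1.62, became 1.84, 1.13, 1.17, 1.81, 1.52 and 1.52 from the pseudocounts to the single-stage rules. The ER- luminal difference, 0.64, became 0.69, 0.46, 0.44, 0.90, 0.48 and 0.58, then 0.54 at brighter regions and 0.71 at equal depth. The cause of these shifts was not tested.

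Of the regions called between the luminal types, 193, the number became 120 with a pseudocount of 4 and 75 without a variance trend. Without the stage block it was 80, and without 1 library each 33 to 908. With a pseudocount of 4, 15.7% of all regions were called higher in ER+ luminal cells and 12.6% lower. These shares were 11.4% and 9.01% without a variance trend, and 10.1% and 8.10% without the stage block. No paired analysis beyond this block was possible because each cell type and stage has 1 library. ER+ luminal cells were higher in 0 to 18.9% of the calls at the stably basal-open regions. Of the calls over all regions, 44.9 to 56.8% were higher there. Depth in pregnancy limits single regions, where 3 reads are worth 4.55 to 6.60 units.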
